A study of Mus musculus with 21 samples.

Results

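The immediate early genes described here are 10 transcription factor and effector genes chosen by name (Fos, Fosb, Fosl2, Junb, Egr1, Egr2, Egr3, Nr4a1, Nr4a3 and Arc). Rows were found by gene symbol for 9 of the 10, among 31883 genes in all, and Fosb was not analysed here. All 9 passed the filter on low values. The study compared the hippocampus of C57BL/6 mice with the subcommissural organ (SCO), a midline gland built of secretory ependymal cells. Bulk RNA sequencing values were held for 4 SCO and 5 hippocampus libraries of postnatal day 0 (P0). Another 12 samples, labelled P60, were not used here. All 9 libraries carry the same strain label, and no genotype or treatment is named. The labels do not say whether each library came from its own animal, so p-values reflect variation among these libraries only, and that variation may be technical.

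Immediate early genes are transcribed within minutes of a stimulus, without new protein synthesis. In neurons, calcium entry and growth factor signals reach them through the kinases of the MAPK and calmodulin pathways, which act on the promoter-bound factors SRF, its ELK partners and CREB. Most of the products are transcription factors (the FOS and JUN proteins that form AP-1, the EGR zinc finger proteins and the NR4A orphan nuclear receptors) that switch on a later set of genes, and Arc acts at synapses. Their level in dissected tissue also reflects handling, and they are transcribed in glia, vessels and immune cells too.

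Values below are normalized counts, that is, reads of a gene scaled by the size factor of its library. The libraries held 35379988 to 151009954 reads, and the deepest were hippocampus replicates 4 and 5. In bulk tissue, fewer cells of a type and less RNA per cell cannot be told apart. The SCO marker genes Sspo, Spdef and Car3 took 0.0187% to 0.0568% of reads in SCO libraries and 0.000176% to 0.000758% in hippocampus libraries. Markers of hippocampal excitatory neurons took 0.0139% to 0.0256% of reads in SCO and 0.184% to 0.276% in hippocampus, so both labels go with the markers of their tissue. Choroid plexus markers stood apart in SCO replicate 4, where Ttr had 171311 normalized counts against 108 to 560 in the other SCO libraries and at most 12985 in hippocampus.

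The promoters of 4 members are printed first, because these genes share a regulatory motif, while 1 of them (Nr4a3) passed the test between the tissues and the other 3 did not. Sequences are from RefSeq, build GRCm38.p6, in windows that end at the base before the RefSeq start. They are limited to bases that no annotated GENCODE M21 exon covers. The Nr4a3 stretch therefore stops at base 48045152, short of the end of its window at 48045304. Capitals mark the core of the cyclic AMP response element (TGACG, or CGTCA on the other strand), the TATA box letters TATAAA, and the EGR motif GCGNGGGCG on either strand.
Fos, chr12:85473640-85473889, plus strand: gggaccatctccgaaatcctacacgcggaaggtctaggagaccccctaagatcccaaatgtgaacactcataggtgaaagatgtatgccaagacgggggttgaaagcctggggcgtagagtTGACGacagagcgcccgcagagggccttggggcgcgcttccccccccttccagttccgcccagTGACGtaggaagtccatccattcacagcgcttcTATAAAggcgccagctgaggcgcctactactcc
Junb, chr8:84978749-84978998, minus strand: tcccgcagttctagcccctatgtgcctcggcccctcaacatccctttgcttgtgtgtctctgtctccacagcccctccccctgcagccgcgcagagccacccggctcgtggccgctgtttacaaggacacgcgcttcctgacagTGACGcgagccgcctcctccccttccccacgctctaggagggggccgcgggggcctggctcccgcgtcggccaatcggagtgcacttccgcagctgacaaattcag
Nr4a1, chr15:101266596-101266845, plus strand: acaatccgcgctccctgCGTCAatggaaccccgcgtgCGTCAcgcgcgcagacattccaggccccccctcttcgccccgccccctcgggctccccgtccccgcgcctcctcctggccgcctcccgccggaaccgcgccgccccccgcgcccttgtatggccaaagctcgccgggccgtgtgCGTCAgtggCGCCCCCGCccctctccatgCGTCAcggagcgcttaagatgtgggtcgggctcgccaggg
Nr4a3, chr4:48045055-48045152, plus strand: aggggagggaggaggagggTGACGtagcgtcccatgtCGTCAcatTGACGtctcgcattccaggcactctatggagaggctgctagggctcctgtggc

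In windows of 250 bases before the start, 6 of the 7 members matched in the RefSeq promoter table held this core (Egr2, Fos, Fosb, Junb, Nr4a1 and Nr4a3), against 19.8% of all 27025 genes in that table. Fosl2 was the member without it, and its whole window lies in annotated GENCODE exon. Egr1, Egr3 and Arc were not searched. Of the genes called lower in SCO below, Nr4a3 thus held the core, Fosl2 did not and Egr3 was not searched. Nr4a1 and Nr4a3 each held 4 cores in the full window, of which 3 of Nr4a3 lie in the stretch printed, Fos held 2 and Junb 1. The full element TGACGTCA was found in 0 of the 7 members and in 1.77% of genes. The AP-1 site TGANTCA was also found in 0 of the 7, against 7.82% of genes. The CArG box, the letters that SRF binds, was found in 1 member (Egr2) and in 1.62% of genes, and the EGR motif in 3 (Fosb, Fosl2 and Nr4a1) and in 5.33%. The core lies within the full element, and both strands were searched. Several genes have more than 1 window, and a match is a string of letters, not a bound site.

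Between the tissues, 3 of the 9 measured members were lower in SCO and 0 were higher. The log2 fold changes of Egr3, Fosl2 and Nr4a3, on the log2(value + 1) scale, were -8.70, -8.17 and -5.35. In limma, which was fitted over 28150 genes, 3.05% of genes were called at an adjusted p under 0.05, 1.34% lower in SCO and 1.71% higher. No member was higher in SCO at an unadjusted limma p under 0.05 (0 of 9), and edgeR and DESeq2 on recovered reads also called 0 higher. The same 3 genes were those whose SCO and hippocampus values did not overlap, against 8.53% of all genes with no overlap, 3.75% lower in SCO and 4.78% higher. The median log2 fold change of the 9 members was -1.68, and -0.04 over all genes tested. With Egr2 and Egr3, which had 0 reads in SCO, set to the bound that 3 reads per library allow, the members' median was -2.15. That bound is a ratio of means, unlike the limma values. The move of the median comes from Egr2, whose hippocampus mean of 38.5 rests largely on replicate 3 (192 normalized counts).

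**Figure D1:**
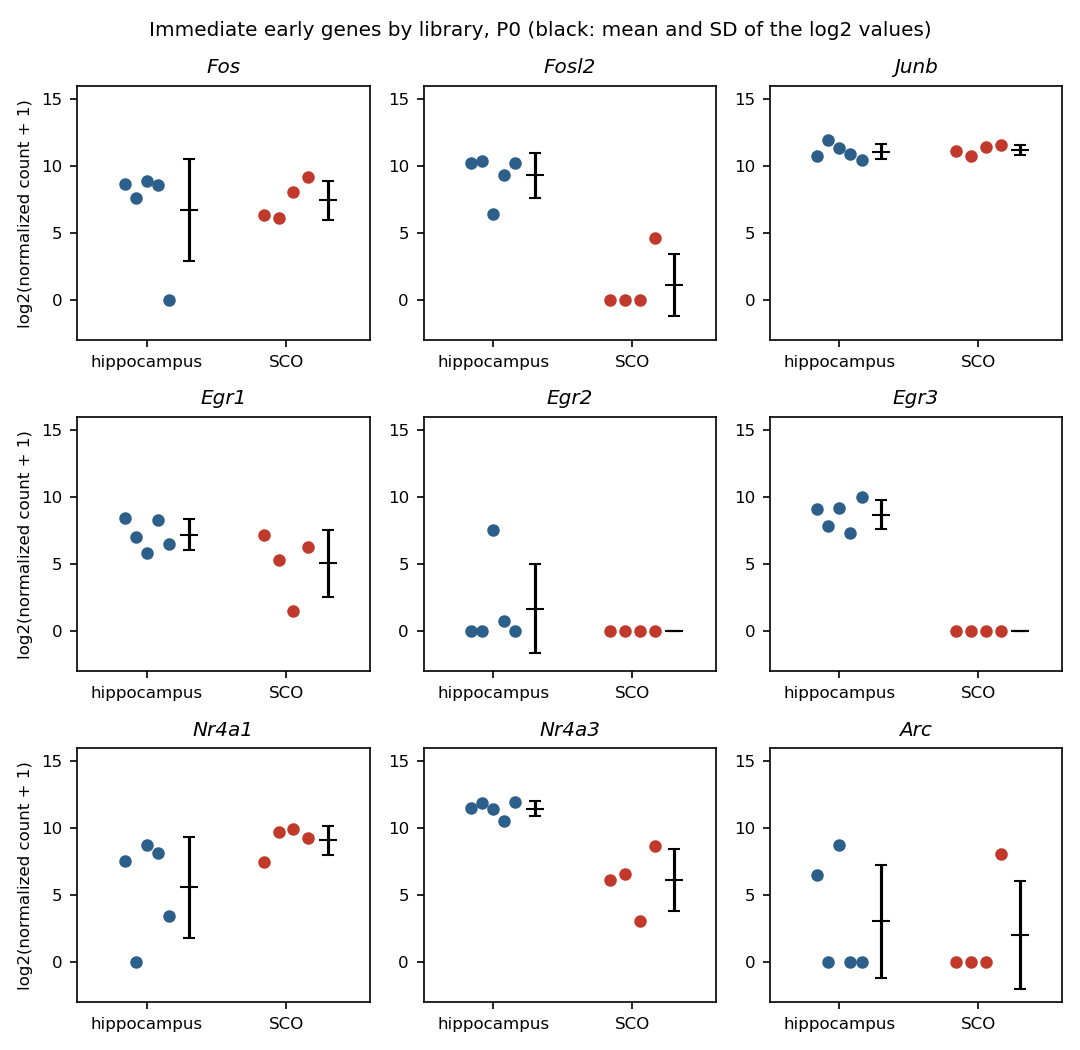
Log2(normalized count + 1) of each immediate early gene in the 5 hippocampus (blue) and 4 SCO (red) libraries, with the mean and SD of the log2 values in black. The tissues do not overlap for Fosl2, Egr3 and Nr4a3, while Junb lies in the same range in both and Arc is at 0 in 3 libraries of each tissue.

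Among the EGR genes, which encode zinc finger factors with a shared DNA-binding domain, Egr3 separated the tissues. In hippocampus replicates 1 to 5 the normalized counts of Egr3 were 554, 229, 588, 158 and 1017. It had 0 reads in each of the 4 SCO libraries. Every hippocampus library thus held Egr3 and no SCO library had a read of it, although the SCO libraries held 35379988 to 64242533 reads each. The mean in hippocampus was 509 ± 342 (SD, n = 5), which makes Egr3 at least 136-fold lower in SCO when SCO is set to 3 reads in each library, which averages 3.75 normalized counts. This bound covers counting error only. Its log2 fold change from limma was -8.70, with an SE of 0.92 (adjusted p = 0.000842). Egr3 (ENSMUSG00000033730.4) spans chr14:70077203-70082614 (GRCm38, plus strand).

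Egr1, the most widely used activity marker of the family, did not pass the test. It had 357, 127, 55.7, 311 and 89.4 normalized counts in hippocampus and 143, 39.9, 1.83 and 76.1 in SCO. The SCO values lie toward the low end but overlap those of hippocampus, and the lowest, in SCO replicate 3, rests on 2 reads. Means were 188 ± 137 (SD, n = 5) in hippocampus and 65.3 ± 60.2 (SD, n = 4) in SCO. The log2 fold change was -2.15 (95% interval -4.81 to 0.52, limma adjusted p = 0.442), and -0.95 without SCO replicate 3, the library with 2 reads (adjusted p = 0.658). Egr2, known for hindbrain patterning and myelinating glia as well as for the activity response, had 0 reads in all 4 SCO libraries and in 3 of 5 hippocampus libraries. The other 2 hippocampus libraries held 192 normalized counts (replicate 3) and 0.731 (replicate 4, 2 reads). Egr2 was therefore read in quantity in a single library, and its log2 fold change of -1.68 had a 95% interval from -4.99 to 1.64 (limma adjusted p = 0.621).

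Of the AP-1 genes, Fosl2, a FOS relative that forms dimers with JUN proteins, was lower in SCO. Hippocampus libraries held 1216, 1321, 85.6, 643 and 1211 normalized counts of Fosl2. SCO replicates 1 to 3 had 0 reads, and replicate 4 had 23.5, from 21 reads. Thus even the highest SCO library was below the lowest hippocampus library, and all the signal in SCO came from 1 library. Fosl2 had a mean of 895 ± 525 (SD, n = 5) in hippocampus and 5.88 ± 11.8 (SD, n = 4) in SCO, and limma gave a log2 fold change of -8.17, with an SE of 1.30 (adjusted p = 0.00758). Without SCO replicate 4 it was -9.33 (limma adjusted p = 0.00305). In edgeR on recovered reads the gene did not pass (log2 fold change -7.21, adjusted p = 0.0849). Fosl2 (ENSMUSG00000029135.10) spans chr5:32135801-32157842 (GRCm38, plus strand).

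Fos itself, the classical marker of recent activity, ranged as widely within each tissue as between them. Hippocampus replicates 1 to 5 held 404, 196, 489, 384 and 0 normalized counts. SCO replicates 1 to 4 held 82.1, 67.9, 275 and 590. The highest value of the 9 libraries was in SCO and the lowest, 0 reads among 143312271, in hippocampus replicate 5. Mean levels were 295 ± 196 (SD, n = 5) and 254 ± 243 (SD, n = 4). The log2 fold change was 0.69 (95% interval -3.20 to 4.57, limma adjusted p = 0.870), of opposite sign to the difference of the means, and -1.004 without hippocampus replicate 5 (limma adjusted p = 0.630).

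Junb, the JUN family partner that often restrains JUN, had the narrowest interval of the 9 members. It had 1709, 3937, 2665, 1968 and 1423 normalized counts in hippocampus and 2216, 1776, 2790 and 3160 in SCO. All 4 SCO values lay inside the hippocampus range. The means were 2341 ± 1004 (SD, n = 5) and 2486 ± 612 (SD, n = 4), and the log2 fold change was 0.15, with a 95% interval from -0.62 to 0.92 (limma adjusted p = 0.856). Junb shares 173 exonic bases with Prdx2, a peroxiredoxin gene on the opposite strand with 41329 ± 14927 normalized counts in hippocampus and 32651.5 ± 3998 in SCO. No source used here gives the strand setting of the counting, so reads in that stretch cannot be told apart.

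Of the NR4A genes, which encode orphan nuclear receptors that need no ligand, the members Nr4a1 and Nr4a3 had means in opposite order: Nr4a3 was lower in SCO and passed the test, and the higher SCO mean of Nr4a1 did not pass. Nr4a3 had 2874, 3780, 2769, 1525 and 3908 normalized counts in hippocampus. In SCO it had 68.6, 97.5, 7.30 and 404. Every SCO library was below every hippocampus library, and replicate 4 was again the highest of the SCO libraries. Nr4a3 fell from 2971 ± 958 (SD, n = 5) to 144 ± 177 (SD, n = 4), a mean 20.6 times as high in hippocampus (limma fold change -5.35 on the log2 scale, SE 0.93, adjusted p = 0.0125). The gene (ENSMUSG00000028341.9) spans chr4:48045153-48086447 (GRCm38, plus strand).

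Nr4a1 had 189, 0, 432, 283 and 9.89 normalized counts in hippocampus and 179, 842, 970 and 616 in SCO. Of the SCO libraries, 3 lay above every hippocampus library and replicate 1 lay among them. Its mean was 183 ± 184 (SD, n = 5) in hippocampus and 652 ± 347 (SD, n = 4) in SCO, 3.57 times as high. The log2 fold change of 3.52 did not pass the test (95% interval -0.23 to 7.27, limma adjusted p = 0.355). It was 2.12 without hippocampus replicate 2, the library at 0, and 1.79 in edgeR and 1.83 in DESeq2 on recovered reads, none of which passed.

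Compared per kilobase of exon, the levels of Nr4a1 and Nr4a3 changed places between the tissues (Nr4a2, not a member, is described with the wider response). In hippocampus Nr4a3 had a mean of 496 ± 160 (SD, n = 5) normalized counts per kilobase and Nr4a1 52.1 ± 52.5. In SCO Nr4a1 had 186 ± 99.0 (SD, n = 4) and Nr4a3 24.1 ± 29.6. Nr4a1 was above Nr4a3 in 4 of 4 SCO libraries and in 0 of 5 hippocampus libraries. This pair was singled out after its values were seen, so the exchange is a description with no test.

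**Figure D2:**
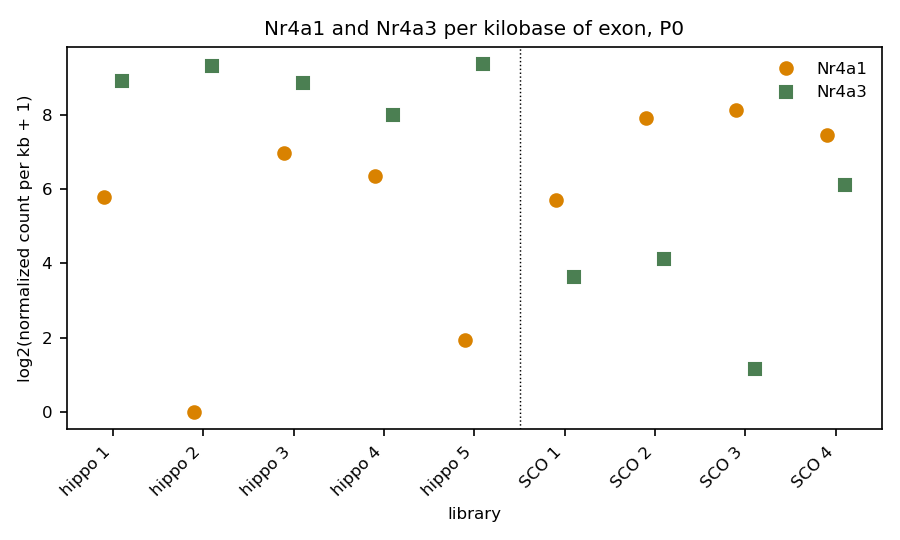
Log2(normalized count per kilobase of exon + 1) of Nr4a1 (circles) and Nr4a3 (squares) in each library, hippocampus left and SCO right of the dotted line. Nr4a3 is the higher one in all 5 hippocampus libraries and Nr4a1 in all 4 SCO libraries.

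Arc, whose product assembles into capsid-like particles and takes part in removing AMPA receptors from synapses, was read in few libraries. Hippocampus replicate 1 had 88.6 normalized counts and replicate 3 had 425, and the other 3 had 0 reads. In SCO it had 271 in replicate 4 and 0 reads in the other 3. Arc was thus present or absent by library rather than by tissue. Its log2 fold change was -1.02, with a 95% interval from -6.37 to 4.32 (limma adjusted p = 0.858), and it turned to 0.40 without hippocampus replicate 3.

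**Figure D3:**
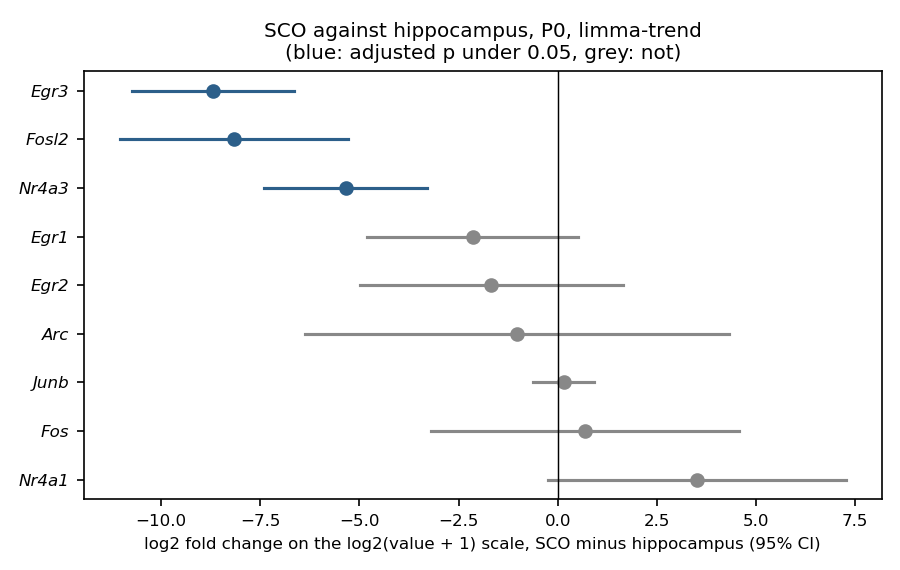
Log2 fold change on the log2(value + 1) scale, SCO minus hippocampus, for the 9 immediate early genes, with the 95% interval from limma-trend. Egr3, Fosl2 and Nr4a3 (blue) passed an adjusted p of 0.05; the intervals of the other 6 (grey) include 0, and the narrowest is that of Junb.

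Per kilobase of exon, Junb was the highest member in both tissues, with 1017 ± 436 (SD, n = 5) normalized counts per kilobase in hippocampus and 1080 ± 266 (SD, n = 4) in SCO. These Junb levels may include reads from the stretch shared with Prdx2. In hippocampus Nr4a3 followed with 496 ± 160. The next genes in that order, Fos with 125 ± 83.5, Egr3 with 116 ± 77.6 and Fosl2 with 92.5 ± 54.2, lay within their spread of each other. Nr4a1, Egr1, Arc and Egr2 came last, with 52.1 ± 52.5, 41.9 ± 30.5, 33.6 ± 60.3 and 11.3 ± 25.2. In SCO the order below Junb was Nr4a1 with 186 ± 99.0 and Fos with 108 ± 103, which lay within their spread of each other. Nr4a3, Arc and Egr1 had 24.1 ± 29.6, 22.2 ± 44.3 and 14.6 ± 13.4, Fosl2 had 0.607 ± 1.21, and Egr2 and Egr3 had 0 reads.

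Read from library to library, hippocampus replicate 3 held the highest hippocampus value of 4 members (Fos, Egr2, Nr4a1 and Arc) and the lowest of Fosl2 and Egr1. SCO replicate 4 held the highest SCO value of 5 (Fos, Fosl2, Junb, Nr4a3 and Arc), and 7 members had a read there, against 5 in each of the other SCO libraries. It was also the SCO library with the highest share of pan-neuronal markers, 0.348% to 0.670% across SCO against 0.654% to 0.808% in hippocampus, and with the Ttr value given above. The part of these in the values of that library was not tested. A gene at 0 in one library and well above 0 in another is frequent in this table. Of 7270 genes with a mean of 50 to 500 normalized counts, a range chosen after the values were seen, 52.2% had at least 1 library at 0 reads. Among the members in that range it was 5 of 6 (Egr1 was the exception).

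Neuronal markers also differed between the tissues. Of the 10 markers of hippocampal excitatory neurons 8 were lower in SCO and 0 higher, with a median log2 fold change of -5.70. None of them was at 0 reads in all SCO libraries. Of 10 markers of GABAergic interneurons 4 were lower (Lhx6, Dlx1, Dlx2 and Reln) and 1 higher (Calb2), and Dlx1 and Dlx2 had 0 reads in all 4 SCO libraries, as Egr3 had. The summed share of this list was 0.0537% to 0.139% in SCO and 0.0647% to 0.0881% in hippocampus. Of 10 pan-neuronal markers 1 was lower (Snap25), with a median of -0.57. Markers of habenular and thalamic neurons took 0.0826% to 0.124% of reads in SCO and 0.00640% to 0.00989% in hippocampus. Microglial markers took 0.0810% to 0.104% and 0.0332% to 0.0498%, and endothelial markers 0.0342% to 0.0448% and 0.0183% to 0.0295%. Red blood cell markers took 0.0804% to 0.148% and 0.00781% to 0.0445% (4 of 5 tested called higher), and ependymal and ciliated cell markers 0.0478% to 0.0781% and 0.00800% to 0.0140% (5 of 8 called higher). The part of any of these cell types in the immediate early gene values was not tested.

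Depth also differed, with hippocampus replicates 4 and 5 at 151009954 and 143312271 reads and the other 7 libraries at 35379988 to 64242533. Without those 2, Egr3 passed with a log2 fold change of -8.72 (limma adjusted p = 0.0129). Fosl2 and Nr4a3 kept their direction and did not pass, at -7.86 (limma adjusted p = 0.0680) and -5.49 (limma adjusted p = 0.0625), in a fit that called 449 genes instead of 859. In the authors' deposited table the log2 fold changes of Egr3, Fosl2 and Nr4a3 were -11.14, -7.24 and -4.36, with adjusted p-values of 1.04e-15, 7.91e-06 and 2.81e-06. The authors' deposited table gives adjusted p-values of 0.393 to 0.960 for Fos, Junb, Egr1, Nr4a1 and Arc, and none for Egr2.

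The wider response was read from 8 lists with 132 distinct tested genes, of which 1 was higher and 6 lower in SCO, with a median log2 fold change of -0.23. These shares compare with 1.71% and 1.34% of all genes in limma. The counts below from other tools have other backgrounds: of 28150 genes DESeq2 called 2706 (1213 lower) and edgeR 503 (203 lower). The share of all genes at an unadjusted limma p under 0.05 was not taken, so counts at that threshold have no background beside them. The other members of the AP-1, EGR and NR4A families (8 tested) had 0 called in either direction in limma or edgeR, 0 at an unadjusted limma p under 0.05, and 1 lower in DESeq2. The highest of them by mean were Nr4a2, the third receptor of its family and a factor of dopaminergic neurons, and Jun, the main partner of FOS. Nr4a2 had 4660 ± 2077 normalized counts in hippocampus (SD, n = 5) and 3293 ± 3092 in SCO (n = 4), with a log2 fold change of -0.80 (limma adjusted p = 0.594). Jun had 262 ± 195 and 677 ± 520, with a log2 fold change of 1.45 (limma adjusted p = 0.363). Both overlapped between the tissues.

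Of 27 other rapid response genes 1 rose and 1 fell in limma, with a median of 0.27. At an unadjusted limma p under 0.05, 2 were higher and 5 lower. In edgeR 1 was higher and 0 lower. In DESeq2 2 were higher (Rgs2 and Btg2) and 3 lower (Fbxo33, Myc and Plk2). Btg2, Myc and Plk2 were named after their values were seen. Rgs2, a regulator of G protein signalling, had 1551 to 3221 normalized counts in hippocampus and 6642 to 8999.7 in SCO. All 4 SCO libraries held at least 6642, and the log2 fold change from limma was 1.89, with an SE of 0.26 (adjusted p = 0.00360). Fbxo33, an F-box gene of ubiquitin ligases, had 59.9 to 220 in hippocampus, 2.74 in SCO replicate 3 and 0 reads in the other 3 SCO libraries (limma fold change -6.32 on the log2 scale, SE 0.96, adjusted p = 0.00612). In edgeR the Fbxo33 call was lost (adjusted p = 0.0851).

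Genes that shut the response down, such as the MAPK phosphatases and the Sprouty proteins, had 0 of 18 called in limma and in edgeR in either direction. At an unadjusted limma p under 0.05, 3 were higher and 0 lower, and DESeq2 called 3 higher and 0 lower. The highest by mean were Spry2, an inhibitor of receptor tyrosine kinase signalling, with 5092 ± 3238 normalized counts in hippocampus (SD, n = 5) and 3529 ± 793 in SCO (n = 4), and the ERK phosphatase gene Dusp6, with 3794 ± 1781 and 2729 ± 857. Their log2 fold changes were -0.34 and -0.38 (limma adjusted p = 0.71 and 0.68). The 3 that DESeq2 called higher, named after their values were seen, were Zfp36l1, Btg2 and Zfp36l2, with limma log2 fold changes of 1.36, 2.04 and 3.45 (adjusted p = 0.0612, 0.0653 and 0.147). Btg2 passed in limma without hippocampus replicate 1, and Zfp36l1 without hippocampus replicate 2 or SCO replicate 4. The summed share of the list was 0.0329% to 0.0503% of reads in SCO and 0.0260% to 0.0351% in hippocampus.

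Upstream of the response, 2 of 29 factors and kinases fell and 0 rose in limma, with a median of -0.47. The count of 0 higher was also that at an unadjusted limma p under 0.05, in edgeR and in DESeq2. The count lower was 8 at an unadjusted limma p under 0.05, 2 in edgeR and 6 in DESeq2. It was 5 with upper-quartile scaling and 5 with a mean of at least 10, where Camk4, Elk4 and Mef2c, named after their values were seen, joined the 2. Camk2b, a calcium and calmodulin dependent kinase subunit of synapses, had 4734 to 10697 normalized counts in hippocampus and 941 to 1773 in SCO. No SCO library reached the lowest hippocampus library, and the log2 fold change from limma was -2.47, with an SE of 0.30 (adjusted p = 0.00181). Ppp3ca, a catalytic subunit of calcineurin, had 8366 to 15775 in hippocampus and 3262 to 5744 in SCO (limma fold change -1.39 on the log2 scale, SE 0.26, adjusted p = 0.0186). The Ppp3ca call ended without SCO replicate 1 or SCO replicate 4 (adjusted p 0.0508 and 0.0528). Camk2b is also on the list of Arc partners and relatives, where 2 of 11 fell and 0 rose in limma. At an unadjusted limma p under 0.05, 1 of that list was higher and 2 lower. In edgeR 0 were higher and 1 lower, and in DESeq2 1 was higher and 2 lower. The other gene of that list called in limma was Wasf1, an actin regulator that Arc can bind, with 1432 to 2924 in hippocampus and 270 to 986 in SCO (limma fold change -1.95 on the log2 scale, SE 0.44, adjusted p = 0.0423). The Wasf1 call ended in 8 of the 9 fits without 1 library (adjusted p 0.0592 to 0.105).

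Of 16 effector genes that activity regulates in neurons, 1 fell and 0 rose in limma, with a median of -1.19. At an unadjusted limma p under 0.05, 1 was higher and 4 lower. In edgeR 0 were higher and 1 lower, and in DESeq2 0 were higher and 2 lower. Cort, the neuropeptide gene cortistatin, had 117 to 1243 normalized counts in hippocampus, 2.24 in SCO replicate 4 and 0 reads in the other SCO libraries (limma fold change -7.94 on the log2 scale, SE 1.00, adjusted p = 0.00210). Syt4, a synaptotagmin of dense core vesicles, had 25009.6 to 40814 in hippocampus and 6857 to 25863 in SCO, with the highest SCO value in replicate 4 (log2 fold change -1.42, limma adjusted p = 0.0782). Scg2, the secretogranin gene of the same vesicles, had 2853 to 10394 and 4873 to 22453.5, again highest in SCO replicate 4 (log2 fold change 0.92, limma adjusted p = 0.407).

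Genes of handling stress were examined as well. Of 13 heat shock and dissociation stress genes 0 were called in limma or edgeR, 2 were higher and 1 lower at an unadjusted limma p under 0.05, and DESeq2 called 1 lower. Their summed share was 0.353% to 0.410% of reads in SCO and 0.397% to 0.441% in hippocampus. Hspa8, a constitutive chaperone gene, had 80170.4 ± 17004 normalized counts in hippocampus (SD, n = 5) and 70132 ± 8991 in SCO (n = 4), and Hsp90aa1, an inducible HSP90 gene, 64787 ± 14057 and 63934 ± 15862.5. Less abundant genes, named after their values were seen, leaned both ways. Hspa1a and Hspb1 had log2 fold changes of 3.54 and 3.35 (limma adjusted p = 0.254 and 0.274), and Mt2 had -1.47 (limma adjusted p = 0.147). Of the 13 genes 2 did not overlap between the tissues (Hspa1a and Mt2), against 8.53% of all genes. Of 14 hypoxia response genes 1 was lower in SCO and 0 higher in limma. At an unadjusted limma p under 0.05, 3 were higher and 2 lower. In edgeR 0 were higher and 1 lower, and in DESeq2 3 were higher and 2 lower. Pfkfb3, a regulator of glycolysis, had 4366 to 6857 in hippocampus and 1350 to 2797 in SCO (limma fold change -1.27 on the log2 scale, SE 0.28, adjusted p = 0.0354), a call that ended in 7 of the 9 fits without 1 library (adjusted p 0.0505 to 0.0829). The glycolytic genes Ldha and Pgk1 had log2 fold changes of -0.22 and 0.48 (limma adjusted p = 0.665 and 0.404).

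**Figure D4:**
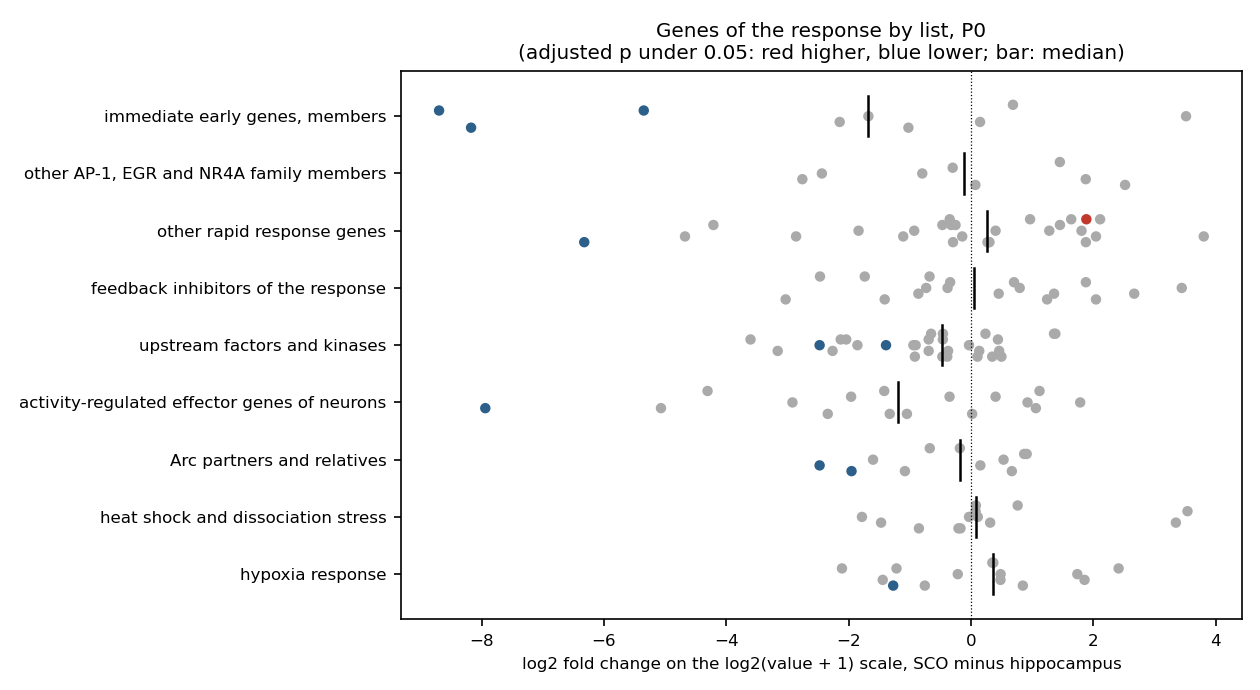
Log2 fold change on the log2(value + 1) scale, SCO minus hippocampus, of each tested gene in the members' list and the 8 lists of the wider response, with a bar at each list's median. Points in red were higher and in blue lower in SCO at a limma adjusted p under 0.05, grey points neither; most genes of the wider response are grey, and the members' list holds 3 blue points left of -5.

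The genes whose pattern over the 9 libraries was most like that of a member were found among 15308 genes with a mean of at least 20. Likeness was the root mean square difference of centred log2(value + 1). For Fos they were Zmynd12 (0.48), Trpc7 (0.60) and Slc45a1 (0.69), which were all below 2 normalized counts in hippocampus replicate 5 and lower in SCO replicates 1 and 2 than in 3 and 4. For Egr1 they were Bmi1 (0.74), Sfxn2 (0.83) and Mipep (0.87), each with its lowest value in SCO replicate 3. For Arc they were Tifab (0.63), Eqtn (0.82) and Npy5r (1.02), which were high in hippocampus replicates 1 and 3 and SCO replicate 4 and at most 3.30 elsewhere.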

How the data were processed

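Bulk RNA-seq of SCO and hippocampus was held as 1 deposited table of 9 P0 libraries. The submitters' processing notes name FastQC, HISAT, HISAT2, featureCounts, DESeq2 and GRCm38. No source used here gives versions, an annotation, a strand setting or how shared reads were treated. The deposited library columns hold a signal: gene reads scaled by size factors. Beside them the authors deposited log2 fold changes, with a standard error and a statistic as score columns, and p-values.

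Dividing each library by the value of its single read (0.366 to 1.65 normalized counts) gave whole reads for 100% of values within 1e-06, and edgeR on these called 503 genes. The main test was limma-trend over 28150 genes whose mean reached 1 in a tissue. Its p-values had Benjamini-Hochberg adjustment over all of these genes, with a threshold of 0.05. Values entered it as log2(value + 1), and its fold changes could be smaller or larger in size than those the authors deposited. Egr3 was smaller in limma, at -8.70 against -11.14, as was Egr2, at -1.68 against -21.95. The deposited Egr2 value has no adjusted p-value. Nr4a1 (3.52 against 1.83), Fosl2 (-8.17 against -7.24) and Nr4a3 (-5.35 against -4.36) were larger in limma. Fos differed in sign (0.69 in limma against -0.22). GENCODE M21 gave exon lengths and positions (31302 of 31883 versioned identifiers matched). The 95% intervals are limma's and hold the spread between libraries; the floor of 3 reads covers counting error only, and no molecular identifiers are named. Versions were R 4.3.3, limma 3.58.1, edgeR 4.0.16, DESeq2 1.42.0 and Python 3.11.15. The tests were also run on simulated counts with the same relative spread for every gene. The frequent zeros of these libraries were not simulated, so that run cannot show how the tests treat them.

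The members and lists were chosen with earlier results of these data known. Named from each list were its called genes, up to 4 by adjusted p, and, where under 2 were called, the 2 of the highest mean, and the 3 genes nearest in pattern to Fos, Egr1 and Arc. Alternatives were other pseudocounts, filters, scalings and tools, a replicate block, and fits without some libraries.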

Additional observations from a re-analysis of the deposited data

Results flagged for a closer look

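In 4 of 16 groups of libraries (each of the 9 genes in each tissue, without 2 groups at 0 reads), 1 library lay farther from the others than Dixon's 95% critical value allows, which chance alone does in about 1 in 20 groups of normally distributed values. That rate does not hold here, since the measure is at its maximum wherever a single library of a group has reads, as for Fosl2 and Arc in SCO. The values are therefore given as a description only. Fosl2 had 23.5 normalized counts in SCO replicate 4 and 0 reads in the other SCO libraries. Arc had 271 in SCO replicate 4 and 0 reads in the other SCO libraries. Egr2 had 192 normalized counts in hippocampus replicate 3, with at most 0.731 in the others. Arc had 425 in hippocampus replicate 3, with 88.6 in replicate 1 and 0 reads in the other 3.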

How the results depend on the processing

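Egr3 was lower in SCO at an adjusted p under 0.05 in all 21 alternatives (adjusted p 1.42e-15 to 0.0464). Over the fits without 1 library, the log2 fold change was -9.04 to -8.37 for Egr3, -9.33 to -7.79 for Fosl2 and -6.20 to -4.33 for Nr4a3, and 3 members were called in each. Over all 21 alternatives the log2 fold change was -12.29 to -6.39 for Egr3, -9.33 to -6.39 for Fosl2 and -6.20 to -4.33 for Nr4a3. As Egr3 had 0 reads in SCO, the size of its limma fold change depends on the value added before taking logs. Fosl2 did not pass in edgeR (-7.21, adjusted p 0.0849). Without hippocampus replicates 4 and 5, 1 member was called (Fosl2 -7.86, Nr4a3 -5.49), and 449 genes in all, 154 of them lower. With the replicate number as a block in replicates 1 to 4, 1 member was called, Egr3 (Fosl2 -7.94, adjusted p 0.0728; Nr4a3 -5.23, adjusted p 0.0861), with 180 genes in all, 55 lower, against 723 and 275 in the same libraries unblocked. Libraries with the same replicate number did not deviate together (correlations -0.029 to 0.019). The deposited column names instead share a number between hippocampus replicate 2 and SCO replicate 2 (-0.025), and between hippocampus replicate 4 and SCO replicate 3 (0.057, the highest of all pairs). Whether libraries were paired cannot be told from these values. The count of 859 genes (378 lower) was 503 (203) in edgeR and 2706 (1213) in DESeq2, and 498 to 1077 (189 to 430) without 1 library: 565 (216) without hippocampus replicate 1, 498 (189) without replicate 3, 242 lower without replicate 4 and 564 without SCO replicate 3. Genes that did not pass changed sign: Fos was -0.24 in edgeR, -0.22 in DESeq2, -1.004 with the block and -0.96 without hippocampus replicates 4 and 5 (-1.004 to 1.23 without 1 library), Junb was -0.0061 with the block (-0.0061 to 0.36 without 1 library) and -0.11 without replicates 4 and 5, and Arc was 0.40 without hippocampus replicate 3 (-3.04 to 0.40 without 1 library). The causes were not tested, and the fits that leave some libraries out also hold fewer libraries. Upper-quartile scaling moved the median of all genes by -0.10 on the log2 scale; the 3 calls held. Counts called in the 8 lists stayed within 1.5 times in 283 of 336 comparisons, where 0 called in both fits counted as unchanged. That share therefore says little on lists with a call. The lower counts of the Arc partners and of the hypoxia genes each stayed within it in 10 of the 21 alternatives.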
